A study of Mus musculus with 12 samples.

Results

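The enzymes that make nitric oxide, peroxide, superoxide and prostaglandins in the inflamed colon were examined together with arginase 1, indoleamine dioxygenase 1 (IDO1) and the cytokine TNF, chosen by name as a group of inflammation genes. Of 10 listed genes (Nos2, Arg1, Ptgs2, Ptgs1, Ptges, Duox2, Duoxa2, Nox1, Ido1 and Tnf), 9 were read by 1 probe each whose only gene symbol was that gene, out of 19938 genes with such a probe. For Ptgs1, the constitutive cyclooxygenase COX-1, the probe table used here names no probe, so no value is given. Whole-transcript arrays were run on colon RNA of C57BL/6 mice in 4 groups of 3 biological replicates. Wild-type (WT) mice and mice lacking thrombospondin-1 (TSP-1-/-), a matrix glycoprotein that restrains new blood vessels, received a single injection of 10 mg/kg of the carcinogen azoxymethane (AOM) and 4 cycles of 7 days of 1.5% dextran sulfate sodium (DSS), a sulfated polysaccharide that injures the colonic epithelium, in the drinking water. These were males of 7 weeks at the start, killed 15 weeks after AOM and, by the paper's methods, 4 weeks after the last DSS. The paper reports inflammation grades without a significant difference between the genotypes at the end of the study. The labels of these 6 arrays give the tissue as colon. The paper's methods name normal and diseased colonic tissues as the source of RNA, and its heatmap caption calls the treated samples tumors. The share of tumor in the RNA of each array is not given, so tumor and inflamed mucosa cannot be told apart. The other groups were WT and TSP-1-/- mice that drank water only. The labels of the water samples carry the protocol of a DSS experiment without AOM, and their age, sex and time of killing are not given with them, so any effect of treatment cannot be told apart from one of the array set. The TSP-1 loss was germline and in all cells, and its effect on any 1 cell type cannot be separated.

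In inflamed colon, NOS2 makes large amounts of nitric oxide from arginine, and arginase 1 draws on the same arginine to make ornithine and urea. COX-2, encoded by Ptgs2, turns arachidonic acid into prostaglandin H, which microsomal prostaglandin E synthase 1, encoded by Ptges, converts to prostaglandin E. DUOX2 with its maturation factor DUOXA2 releases hydrogen peroxide at the apical face of colonocytes, NOX1 makes superoxide in the colon epithelium, and IDO1 opens the breakdown of tryptophan to kynurenine. TNF, made mostly by macrophages and T cells, raises the transcription of several of these enzymes. NOS2, COX-2, mPGES-1 and arginase 1 are made by myeloid cells as well as by epithelium or stroma, and in whole tissue fewer cells of a type and less RNA per cell cannot be told apart.

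A set of RefSeq promoter windows (GRCm38.p6) was used, each of 300 bases (250 before and 50 after an annotated transcription start). The set used here held windows for 7 of the 10 genes, not for Nos2, Arg1 and Ido1. They are shown for the pairs Ptgs2 with Tnf and Duox2 with Duoxa2, whose signals moved together from array to array. Capitals mark matches, on either strand, to the C/EBP palindrome (TTGCGCAA), the cyclic AMP response core (TGACG, or CGTCA on the other strand), the E-box CACGTG, the AP-1 motif (TGANTCA), the TATA box (TATAAA) and the κB motif. Each is written 5′ to 3′ along the gene's strand.
Ptgs2, chr1:150099781-150100080, plus strand: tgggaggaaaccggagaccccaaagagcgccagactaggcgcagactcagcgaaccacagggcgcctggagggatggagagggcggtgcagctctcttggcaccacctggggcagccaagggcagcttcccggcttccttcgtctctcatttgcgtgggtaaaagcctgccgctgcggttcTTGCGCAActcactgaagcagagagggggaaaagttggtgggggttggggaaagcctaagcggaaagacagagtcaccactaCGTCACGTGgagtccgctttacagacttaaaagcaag
Tnf, chr17:35201958-35202257, minus strand: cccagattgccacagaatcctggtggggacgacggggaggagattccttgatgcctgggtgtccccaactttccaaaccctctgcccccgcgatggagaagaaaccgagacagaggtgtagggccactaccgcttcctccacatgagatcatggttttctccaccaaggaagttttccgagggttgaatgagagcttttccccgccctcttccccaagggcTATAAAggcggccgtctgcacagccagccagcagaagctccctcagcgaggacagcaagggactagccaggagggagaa
Duox2, chr2:122298178-122298477, minus strand: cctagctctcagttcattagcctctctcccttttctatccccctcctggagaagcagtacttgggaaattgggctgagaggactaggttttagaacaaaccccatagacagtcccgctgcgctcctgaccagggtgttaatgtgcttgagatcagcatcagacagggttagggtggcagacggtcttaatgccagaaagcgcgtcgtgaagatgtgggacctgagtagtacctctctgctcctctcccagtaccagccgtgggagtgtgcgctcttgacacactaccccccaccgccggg
Duoxa2, chr2:122298650-122298949, plus strand: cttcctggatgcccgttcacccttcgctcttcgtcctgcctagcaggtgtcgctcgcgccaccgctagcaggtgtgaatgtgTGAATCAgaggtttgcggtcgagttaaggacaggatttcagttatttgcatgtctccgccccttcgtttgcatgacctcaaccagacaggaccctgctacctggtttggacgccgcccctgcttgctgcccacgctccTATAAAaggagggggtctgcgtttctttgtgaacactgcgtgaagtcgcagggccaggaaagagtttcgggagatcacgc
Distances are counted from the annotated start of each window, and other starts were not examined. The Ptgs2 window held the C/EBP palindrome 69 bases before that start, a sequence found in 0.183% of the 32851 windows of the set. It also held, 14 bases after that start, a cyclic AMP response core (20.8% of windows) that overlaps an E-box (7.15%). The Tnf window held a TATA box (13.6% of windows) 29 bases before the start. Duox2 and Duoxa2 run in opposite directions from neighbouring starts, with 0 RefSeq genes between them, and the windows differ: the Duoxa2 window held a TATA box 30 bases and an AP-1 motif (7.81% of windows) 168 bases before the start, and the Duox2 window held none of the 6 motifs. The κB motif, present in 8.46% of windows, was in none of the 4. Its letters were GGGRNNYYCC, with R for A or G, Y for C or T and N for any base. Of the windows not shown, that of Nox1 held it, 91 bases before the start. Duox2 and Duoxa2 lie on chromosome 2, as does Thbs1, the gene that was targeted, with 141 genes listed between Thbs1 and Duox2.

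Values are log2 signals relative to a baseline of each probe. The paper's methods name the median of all 12 samples as the baseline. The values themselves show that the 6 AOM/DSS and the 6 water arrays are on different baselines. The AOM/DSS arrays were taken to be on the named median. That the 6 water arrays were the other samples behind it is an assumption. A log2 value of an AOM/DSS array was set against 0 and against other AOM/DSS arrays, but not directly against a water array. A probe was called where limma gave a Benjamini-Hochberg adjusted p under 0.05 over all probes and a difference of at least 2-fold. With 3 arrays a side no exact permutation test can go below p = 0.1.

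Several arrays stood apart from their group. After AOM/DSS the Thbs1 probe read 0.27, -0.16 and -0.069 in WT and 0.81, 0.85 and 0.93 in TSP-1-/- colon, a difference of 0.85 (adjusted p = 0.0730, not called), so transcript was not lower in the null. The null allele is a targeted change in the 5′ part of the gene, and a whole-transcript probe does not check loss of the protein. WT AOM/DSS replicate 1 matched the TSP-1-/- AOM/DSS arrays in colon position: the mean of 6 distal markers (5′ Hox genes) was -0.029 there, -1.71 and -1.82 on the other WT arrays, and -0.41 to 0.10 on the TSP-1-/- arrays. TSP-1-/- AOM/DSS replicate 3 held pancreatic transcripts (mean of 12 acinar markers 6.05, against -0.24 to 0.30 on the other AOM/DSS arrays) and the highest T cell markers (7 genes, 3.30 against -0.19 to 0.69). TSP-1-/- water replicate 1 had the highest neutrophil level of the water arrays (13 genes, 0.60 against -2.22 to -1.82) and of the pancreatic markers (1.68 against 0.0074 to 0.28). The 13 markers of colon epithelium had a mean between -0.99 and 0.39 on all 12 arrays, values that are relative to a baseline and do not give the absolute level. The differences of the 9 genes and of the called pathway genes were also computed without these arrays.

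**Figure D1:**
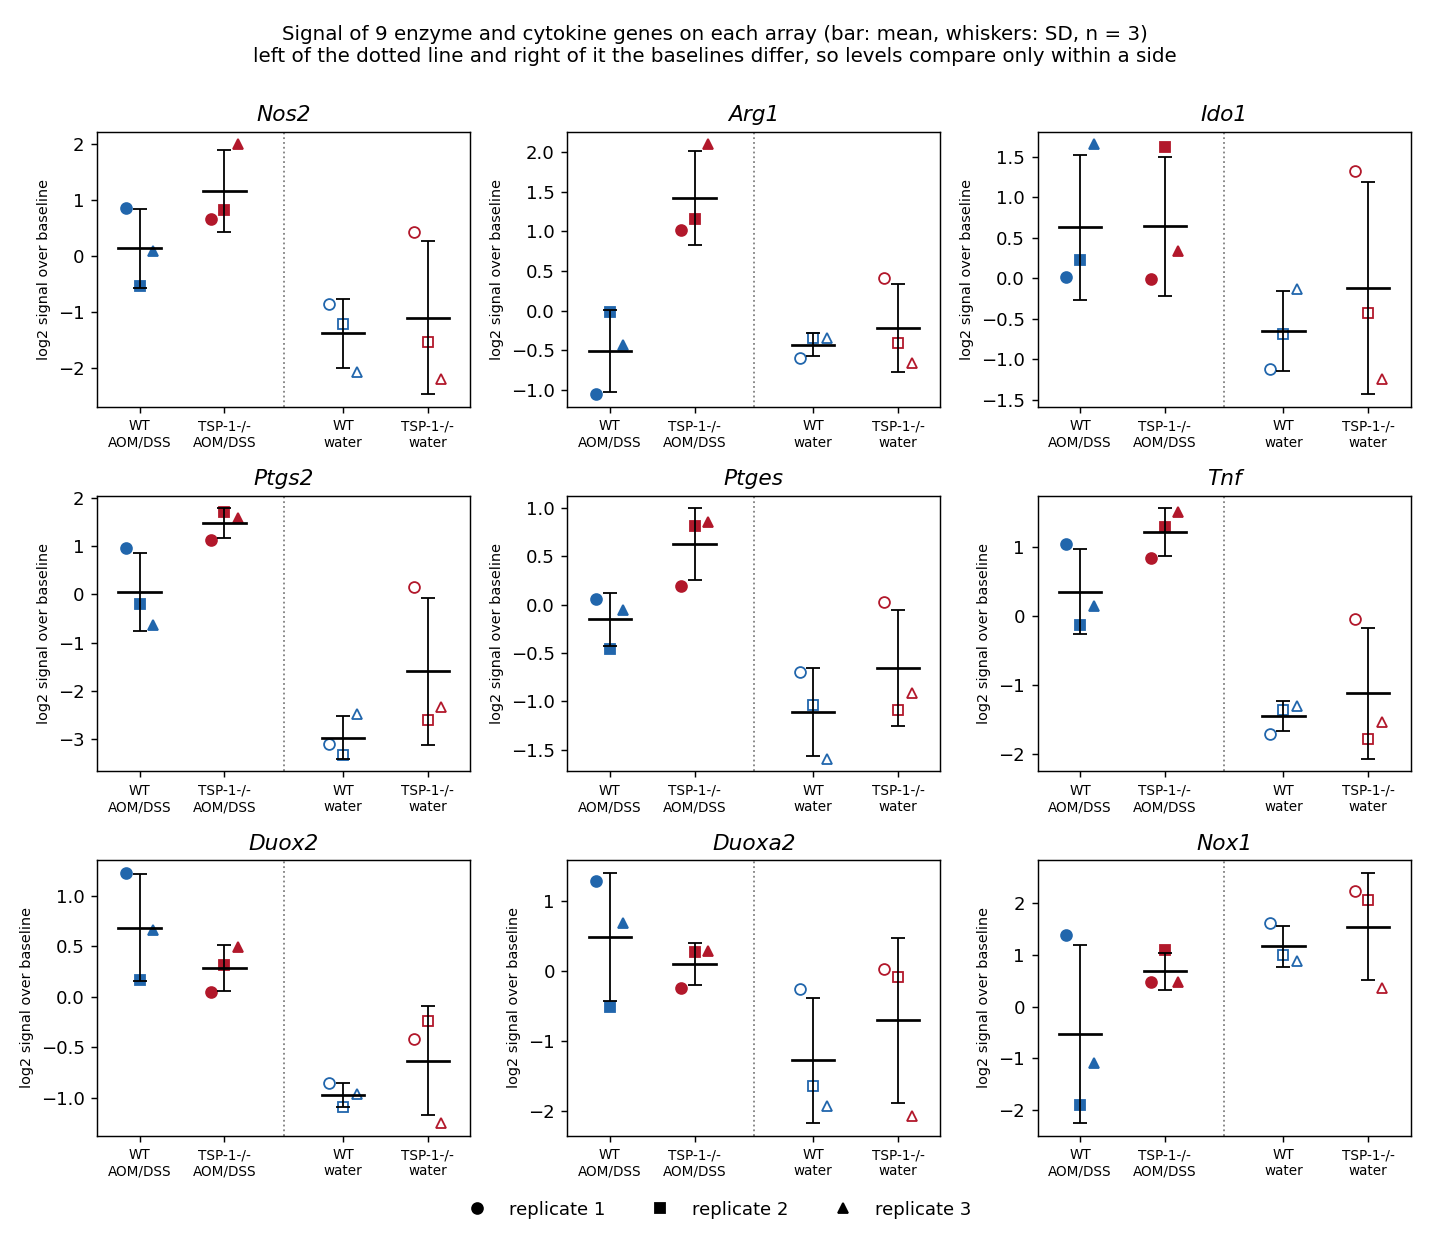
Log2 signal over the probe's baseline (vertical axis) on each of 12 arrays for the 9 genes, by group, with WT in blue and TSP-1-/- in red, filled symbols for AOM/DSS and open symbols for water; bars are means and whiskers SD over 3 arrays. Arg1 separates the AOM/DSS genotypes, from -1.06 to -0.024 in WT and from 1.02 to 2.10 in TSP-1-/-, and TSP-1-/- water replicate 1 (open red circle) is the highest water array for 8 of the 9 genes.

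The first comparison was of TSP-1-/- with WT colon after AOM/DSS. Arg1 was 3.81-fold higher in TSP-1-/- colon and was the only one of the 9 genes called. Ptgs2 and Ptges were higher on every TSP-1-/- array than on every WT array, but neither was called. Nos2, Tnf and Nox1 had positive differences with overlapping arrays, Duox2 and Duoxa2 had small negative ones, and Ido1 had a difference near 0. Over all 28853 probes, 802 (2.78%) were called, 500 higher (1.73%) and 302 lower (1.05%), so 1 of 9 stands against a background of 2.78%. At an unadjusted p under 0.05 there were 3 of 9 genes (Arg1, Ptgs2 and Ptges), and 32.3% of all probes. The arrays of the genotypes did not overlap for 3 of the 9 genes, all higher in TSP-1-/-, where 20.2% of all probes were higher without overlap and 30.8% were without overlap in either direction. The median difference of the 9 genes was 0.86 on the log2 scale, against 0.13 over all probes. Higher medians were found in marker lists on the same arrays. They were 0.91 for distal position, 0.93 for macrophages and monocytes, 0.94 for T cells, 1.90 for neutrophils and 2.22 for pancreas. The other marker lists had medians from -2.04 (adipocyte) to 0.64 (squamous epithelium).

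**Figure D2:**
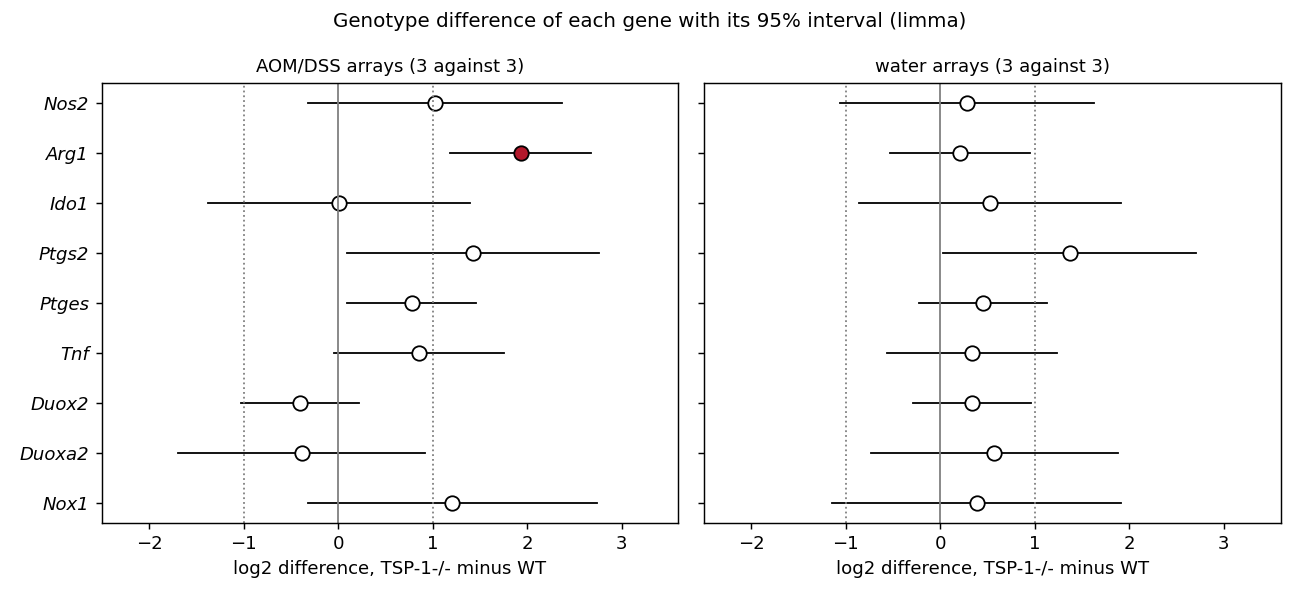
Log2 difference, TSP-1-/- minus WT (horizontal axis), for each gene within the AOM/DSS arrays (left) and within the water arrays (right), with 95% limma intervals, 3 arrays against 3; dotted lines mark a 2-fold difference. Only Arg1 in the AOM/DSS arrays is called (filled), with an interval of 1.19 to 2.68, and the other intervals include 0 or reach close to it.

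Arg1, arginase 1, is a marker of alternatively activated macrophages in mice and is also carried by neutrophils and hepatocytes. Its log2 values after AOM/DSS were -1.06, -0.024 and -0.44 in WT and 1.02, 1.16 and 2.10 in TSP-1-/- colon. All TSP-1-/- arrays were above the 12-array median and all WT arrays below it, with no overlap. The difference was 1.93 (SE 0.34, 95% interval 1.19 to 2.68, adjusted p = 0.0169 by limma), or 3.81-fold. It was 1.66 (adjusted p = 0.0177) without WT replicate 1 and 1.59 (adjusted p = 0.0472) without TSP-1-/- replicate 3. The call held in 17 of 21 alternative settings and was lost without WT replicate 3 (adjusted p = 0.0637), with a second quantile normalization (1.34, adjusted p = 0.0591), with unmoderated variances (0.0580) and with only these 6 arrays in the fit (0.108). Among the 21, those that left out a water array keep the difference itself and change only the pooled spread. The setting with no fold minimum is a looser rule. On the water arrays Arg1 read -0.60, -0.35 and -0.34 in WT and 0.41, -0.42 and -0.66 in TSP-1-/-. There the genotypes overlapped, with 1 TSP-1-/- array above and 1 below all WT arrays, and the difference was 0.21 (95% interval -0.54 to 0.95). The AOM/DSS difference exceeded the water difference by 1.72 (SE 0.48, unadjusted p = 0.00393), which did not pass after adjustment (adjusted p = 0.235), as for all but 2 probes of the array (0.00694%).

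Nos2 encodes the inducible nitric oxide synthase. It read 0.87, -0.54 and 0.085 in WT and 0.67, 0.82 and 2.01 in TSP-1-/- AOM/DSS colon. WT replicate 1 lay above 2 of the 3 TSP-1-/- arrays, so the groups overlapped, and the highest value was on TSP-1-/- replicate 3. The difference was 1.03 (SE 0.62, 95% interval -0.31 to 2.37, adjusted p = 0.260), 1.40 without WT replicate 1 (adjusted p = 0.176) and 0.61 without TSP-1-/- replicate 3 (adjusted p = 0.589). In water the WT values were -0.87, -1.22 and -2.07 and the TSP-1-/- values 0.43, -1.54 and -2.21. A single TSP-1-/- array, replicate 1, was above the range of the other 5, and the difference of 0.28 changed sign to -0.49 without it.

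Around these enzymes, 23 other genes of nitric oxide and arginine metabolism were read by 25 probes. After AOM/DSS, 1 was called higher and 1 lower, with a median difference of -0.086. The rise was in Gatm, which makes guanidinoacetate, the precursor of creatine, from arginine: it was 4.98-fold higher in TSP-1-/- colon (log2 difference 2.32, SE 0.27, adjusted p = 0.00328), from -1.32 ± 0.30 (mean ± SD, n = 3) to 1.00 ± 0.51. The fall was in Otc, the urea cycle enzyme that joins ornithine and carbamoyl phosphate, by 2.31 on the log2 scale (SE 0.49, adjusted p = 0.0263), from 0.57 ± 0.79 to -1.74 ± 1.14. Without TSP-1-/- replicate 3 the Gatm call held (adjusted p = 0.00425) and that of Otc was lost (-1.72, adjusted p = 0.0631). Both enzymes act on arginine or ornithine, and neither makes nitric oxide. Arg2, the mitochondrial arginase, read -1.55, -0.53 and 0.092 in WT and -1.39, -1.24 and -1.40 in TSP-1-/- colon, a difference of -0.68 (adjusted p = 0.148), which was -1.12 and called (adjusted p = 0.00628) without WT replicate 1. It is named after its value was seen because it is the second arginase.

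Ptgs2, the inducible cyclooxygenase COX-2, read 0.95, -0.19 and -0.62 in WT and 1.13, 1.71 and 1.58 in TSP-1-/- AOM/DSS colon. Every TSP-1-/- array was above every WT array, with WT replicate 1 close below the lowest TSP-1-/- one. The difference was 1.43, or 2.69-fold (SE 0.61, 95% interval 0.091 to 2.76, unadjusted p = 0.0382), and was not called (adjusted p = 0.133). Without WT replicate 1 it was 1.88 (adjusted p = 0.0780), without TSP-1-/- replicate 3 1.37 (adjusted p = 0.268). It passed in 1 of 21 alternatives, with TSP-1-/- water replicate 1 left out of the fit (adjusted p = 0.0494), where the difference itself is the same and the pooled spread smaller. The water arrays read -3.09, -3.32 and -2.47 in WT and 0.16, -2.61 and -2.33 in TSP-1-/-. TSP-1-/- replicate 1 alone was far above the other 5 water arrays, by 2.92 over their mean, the widest such gap of the 9 genes. The water difference of 1.37 (unadjusted p = 0.0453, adjusted p = 1) fell to 0.49 without that array.

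Ptges, the terminal synthase coupled to COX-2, read 0.056, -0.46 and -0.056 in WT and 0.20, 0.82 and 0.86 in TSP-1-/- AOM/DSS colon. The groups did not overlap, and the gap between the nearest arrays was small beside the range within TSP-1-/-. The difference was 0.78, or 1.72-fold (SE 0.31, 95% interval 0.097 to 1.46, adjusted p = 0.114), and lay between 0.62 and 0.99 with each array left out in turn. In water it read -0.69, -1.03 and -1.59 in WT and 0.032, -1.09 and -0.91 in TSP-1-/-, overlapping but for TSP-1-/- replicate 1, and the difference of 0.45 was 0.11 without that array.

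Of 29 other genes of prostaglandin synthesis, breakdown and reception (31 probes), 3 were called higher and 2 lower in TSP-1-/- AOM/DSS colon, with a median difference of 0.15. Abcc4, an efflux pump for prostaglandin E and cyclic nucleotides, rose 2.60-fold (log2 difference 1.38, SE 0.21, adjusted p = 0.00987), from 0.27 ± 0.50 to 1.65 ± 0.097. The uptake carrier Slco2a1 fell by 1.07 on the log2 scale (SE 0.30, adjusted p = 0.0473), and Cbr1, a carbonyl reductase that converts prostaglandin E to the F form, fell by 1.14 (SE 0.25, adjusted p = 0.0272). The other called genes, Alox12 and Alox15, encode lipoxygenases, which make hydroxy fatty acids and no prostaglandin. Alox12 rose 3.14-fold (log2 difference 1.65, adjusted p = 0.0250) and Alox15 rose 5.58-fold (2.48, adjusted p = 0.0385), although TSP-1-/- replicate 2 read 1.00 for Alox15, under the 1.29 of WT replicate 1. Without TSP-1-/- replicate 3, only Abcc4 of these 5 was still called (adjusted p = 0.0320), and the adjusted p was 0.0722 for both Alox12 and Cbr1, 0.118 for Alox15 and 0.146 for Slco2a1. Pla2g2a, a secreted phospholipase A2 and the highest uncalled point of the list in the plot of pathway genes (named after its value was seen), read 3.17, -2.34 and -0.34 in WT and 3.27, 3.86 and 3.68 in TSP-1-/- colon (difference 3.44, adjusted p = 0.0539). Its WT replicate 1 was beside the TSP-1-/- arrays, far above the other WT arrays, and without it the difference was 4.94 and called (adjusted p = 0.00129).

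**Figure D3:**
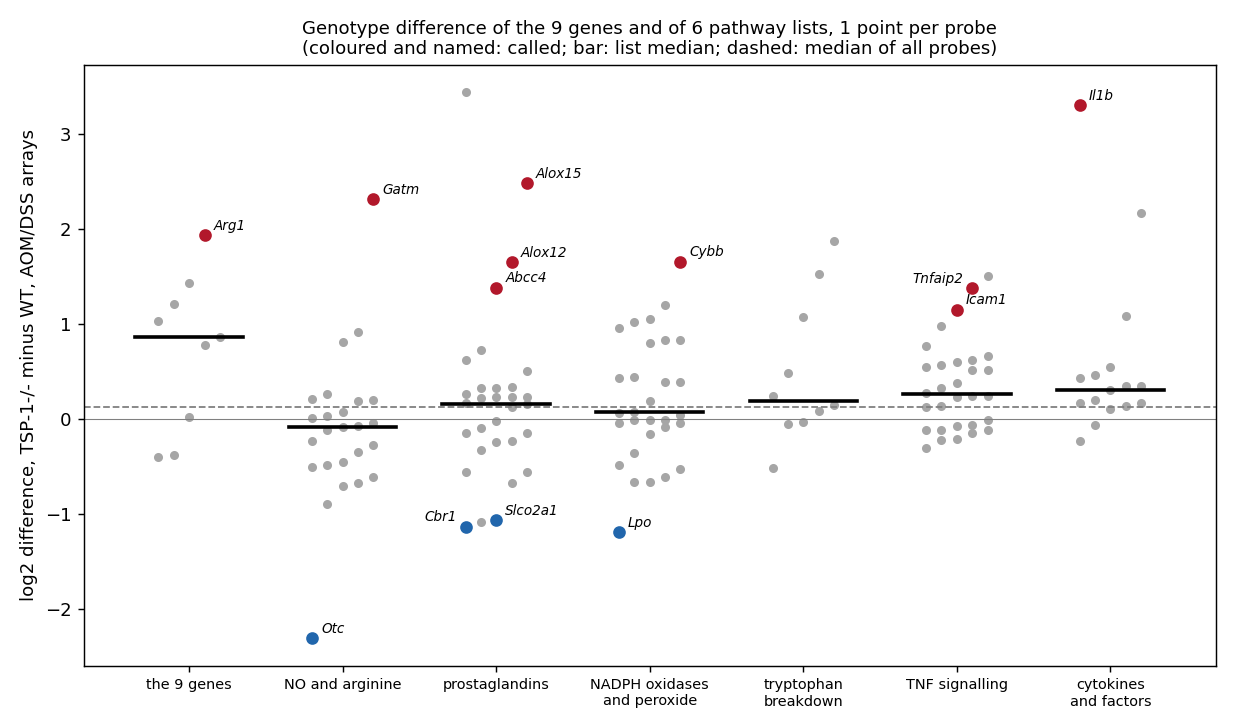
Log2 difference, TSP-1-/- minus WT, in the AOM/DSS arrays (vertical axis), 1 point per probe, for the 9 genes and 6 pathway lists; called probes are coloured (red higher, blue lower) and named, black bars are list medians and the dashed line is the median of all probes, 0.13. The 9 genes have a median of 0.86, and the medians of the 6 lists lie between -0.086 and 0.30. Marker lists, not shown here, had medians from -2.04 to 2.22.

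Duox2, the dual oxidase of the colonocyte surface, read 1.23, 0.16 and 0.66 in WT and 0.043, 0.31 and 0.50 in TSP-1-/- AOM/DSS colon. All 6 values were above the 12-array median, and the TSP-1-/- values lay in the lower part of the WT range or below it. The difference was -0.40 (SE 0.29, 95% interval -1.02 to 0.22, adjusted p = 0.340), and -0.13 without WT replicate 1. Its partner Duoxa2, needed for DUOX2 to leave the endoplasmic reticulum, read 1.28, -0.51 and 0.69 in WT and -0.24, 0.27 and 0.29 in TSP-1-/- colon. The TSP-1-/- arrays lay within the WT range, and the difference of -0.38 (SE 0.60, adjusted p = 0.676) was 0.014 without WT replicate 1. On the water arrays Duox2 read -0.85, -1.09 and -0.97 in WT and -0.42, -0.24 and -1.25 in TSP-1-/-, and Duoxa2 -0.26, -1.64 and -1.93 against 0.036, -0.090 and -2.06. In both, TSP-1-/- replicates 1 and 2 were above all WT arrays and replicate 3 below them. The water differences were 0.33 (95% interval -0.29 to 0.96) for Duox2 and 0.57 (-0.73 to 1.88) for Duoxa2. The genotype difference after AOM/DSS minus that in water was -0.73 for Duox2 (unadjusted p = 0.0943, adjusted p = 0.378) and -0.95 for Duoxa2 (adjusted p = 0.566), so opposite signs in the array sets were within the spread.

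Nox1 encodes the superoxide-making oxidase of colon epithelium, a gene with more transcript toward the distal colon. It read 1.39, -1.90 and -1.09 in WT and 0.48, 1.09 and 0.47 in TSP-1-/- AOM/DSS colon. WT replicate 1 was the highest of the 6 arrays and the other WT arrays the lowest. The difference was 1.21 (SE 0.70, 95% interval -0.32 to 2.74, adjusted p = 0.245), and without WT replicate 1 it was 2.17 and called (adjusted p = 0.0226). Hoxb13, a distal colon marker, read 0.43, -6.33 and -5.89 in WT and 0.78, -0.061 and 0.061 in TSP-1-/- colon on the same arrays. Over the 12 arrays, each array set centred on its own mean, Nox1 and Hoxb13 had a Pearson correlation of 0.869, the highest with Hoxb13 among the 9 genes, followed by Nos2 at 0.732. The part of colon position in the Nox1 difference was not tested. In water Nox1 read 1.61, 0.99 and 0.88 in WT and 2.22, 2.05 and 0.35 in TSP-1-/-, with the lowest value on TSP-1-/- replicate 3, where Hoxb13 was also lowest at -4.24. That difference was 0.38 (95% interval -1.14 to 1.91), and 0.043 without TSP-1-/- replicate 1.

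Among 27 other oxidase subunits and peroxide-handling genes (30 probes), 1 was called higher and 1 lower after AOM/DSS, with a median difference of 0.070. Cybb, which encodes the NOX2 catalytic subunit of phagocytes, rose 3.15-fold (log2 difference 1.66, SE 0.38, adjusted p = 0.0310), from -0.064 ± 0.12 to 1.59 ± 0.94. Lpo, lactoperoxidase, fell by 1.20 (SE 0.28, adjusted p = 0.0318), from 0.73 ± 0.48 to -0.46 ± 0.35. Both calls were lost without TSP-1-/- replicate 3, where the difference was 1.12 for Cybb (adjusted p = 0.0618) and -1.06 for Lpo (adjusted p = 0.0975).

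Ido1 read 0.012, 0.22 and 1.66 in WT and -0.012, 1.62 and 0.33 in TSP-1-/- AOM/DSS colon. Each genotype had 1 high and 2 low arrays, and the ranges coincided almost fully. The difference was 0.015 (SE 0.64, 95% interval -1.37 to 1.40, adjusted p = 0.989), an interval that leaves room for more than a 2-fold difference either way. In water it read -1.12, -0.69 and -0.14 in WT and 1.32, -0.43 and -1.25 in TSP-1-/-, a difference of 0.53 that changed to -0.19 without TSP-1-/- replicate 1. Of 10 other genes of tryptophan breakdown, 0 were called by limma, with a median difference of 0.19. The lowest adjusted p were those of Kmo, kynurenine 3-monooxygenase (log2 difference 1.87, adjusted p = 0.0551), and Kynu, kynureninase (1.53, adjusted p = 0.0961), the enzymes after kynurenine. Kmo read 0.47, -0.58 and 0.050 in WT and 1.56, 0.56 and 3.42 in TSP-1-/- colon, with no overlap and with TSP-1-/- replicate 3 far above the rest. Without that array the differences were 1.08 for Kmo (adjusted p = 0.127) and 0.86 for Kynu (adjusted p = 0.305).

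Tnf read 1.04, -0.13 and 0.13 in WT and 0.84, 1.29 and 1.51 in TSP-1-/- AOM/DSS colon. WT replicate 1 was above the lowest TSP-1-/- array, and the other WT arrays were below all TSP-1-/- arrays. The difference was 0.86, or 1.82-fold (SE 0.41, 95% interval -0.039 to 1.76, adjusted p = 0.170), 1.21 without WT replicate 1 (adjusted p = 0.0799) and 0.71 without TSP-1-/- replicate 3 (adjusted p = 0.370). In water Tnf read -1.70, -1.36 and -1.30 in WT and -0.044, -1.78 and -1.54 in TSP-1-/-. TSP-1-/- replicate 1 stood above 5 arrays that lay close together, and the difference of 0.33 became -0.21 without it.

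Of 27 receptors, adaptors and targets of TNF signalling (30 probes), 2 were called higher and 0 lower after AOM/DSS, with a median difference of 0.26. Tnfaip2, a TNF-induced gene of endothelial and myeloid cells, rose 2.59-fold (log2 difference 1.37, SE 0.26, adjusted p = 0.0185), and Icam1, the leukocyte adhesion molecule, rose 2.22-fold (1.15, SE 0.27, adjusted p = 0.0326). Among 15 cytokines and transcription factors that act on NOS2, DUOX2 or IDO1 (16 probes), some of them inducers and one, Il10, a suppressor of NOS2, the median difference was 0.30 and 1 gene was called higher. This was Il1b, interleukin-1β, which read 1.82, -0.82 and 0.0013 in WT and 2.83, 4.21 and 3.88 in TSP-1-/- colon. All its TSP-1-/- arrays were above WT, 9.89-fold on average (log2 difference 3.31, SE 0.92, adjusted p = 0.0478). In water Il1b lay between -4.76 and -3.80 on 5 arrays and at -0.19 on TSP-1-/- replicate 1. Without TSP-1-/- AOM/DSS replicate 3 the calls of Tnfaip2 (adjusted p = 0.0593), Icam1 (0.102) and Il1b (0.124) were lost. Of the 12 pathway genes called with all arrays, 2 (Gatm and Abcc4) were still called without that array, as were 19.6% of the probes called over the whole array, and all 12 were called without WT replicate 1, as were 88.8%.

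Taking single arrays across the 9 genes, WT AOM/DSS replicate 1 was the highest WT array for 7 of them and the lowest for 2, and TSP-1-/- AOM/DSS replicate 1 was the lowest of its group for 8. With WT replicate 1 left out, 6 of 9 genes (Arg1, Ptgs2, Ptges, Nos2, Tnf and Nox1) were higher on every TSP-1-/- array than on the other WT arrays, where 29.3% of all probes were so. WT replicate 1 was the single WT array at the position of the TSP-1-/- arrays: the mean of 7 proximal markers was -2.20 there, 0.53 and 0.49 on the other WT arrays and -3.09 to -1.97 on the TSP-1-/- arrays, so without it genotype and colon position cannot be told apart. Several marker lists differed between the genotypes on the same arrays. Within each AOM/DSS group the neutrophil list had the same array order as the mean of the 9 genes. So had the liver list, the TNF signalling list and Thbs1. The macrophage list did not have this order: it was highest in WT on replicate 3 and lowest in TSP-1-/- on replicate 2. Arg1 in WT was lowest on replicate 1, where the neutrophil list was highest. These are orders of 3 arrays a group, and their cause was not tested. The mean of 15 macrophage and monocyte markers lay between -0.42 and 0.012 in WT and between 0.40 and 1.06 in TSP-1-/- AOM/DSS colon, with 4 called higher (Ccr2, Csf1r, Lyz2 and Msr1), of which Lyz2 was still called without WT replicate 1 and 0 without TSP-1-/- replicate 3. The mean of 13 neutrophil markers lay between -0.80 and 0.37 in WT, highest on replicate 1, and between 1.34 and 2.13 in TSP-1-/-, with 4 called higher (Csf3r, Cxcr2, Lcn2 and Mmp9), all of them still called without WT replicate 1 and 0 without TSP-1-/- replicate 3. The 13 epithelial markers lay between -0.16 and 0.23 in WT and between -0.99 and -0.0052 in TSP-1-/-, with 1 called lower (Car1). The mean of 9 liver markers lay between -0.20 and -0.073 in WT and between 0.29 and 0.61 in TSP-1-/-. The difference was positive for only 6 of the 9, with a median of 0.35. Of them 1 was called higher, the albumin gene Alb (6.91-fold, adjusted p = 0.00448 by limma), and hepatocytes also carry Arg1. The mean of 7 adipocyte markers was -1.11, 1.11 and 1.09 in WT and lay between -1.82 and -0.94 in TSP-1-/-, with 2 called lower (Cidec and Retn). The mean of 8 markers of squamous epithelium lay between -0.34 and -0.12 in WT and between 0.27 and 0.75 in TSP-1-/-, with 2 called higher (Krt14 and Krt4). Without TSP-1-/- replicate 3 the calls of Car1, Cidec and Retn were lost, and those of Alb, Krt14 and Krt4 held. All of these held without WT replicate 1. The part of these cells and of colon position in the differences of Arg1, Ptgs2, Nos2, Ptges, Tnf and Nox1 was not tested.

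**Figure D4:**
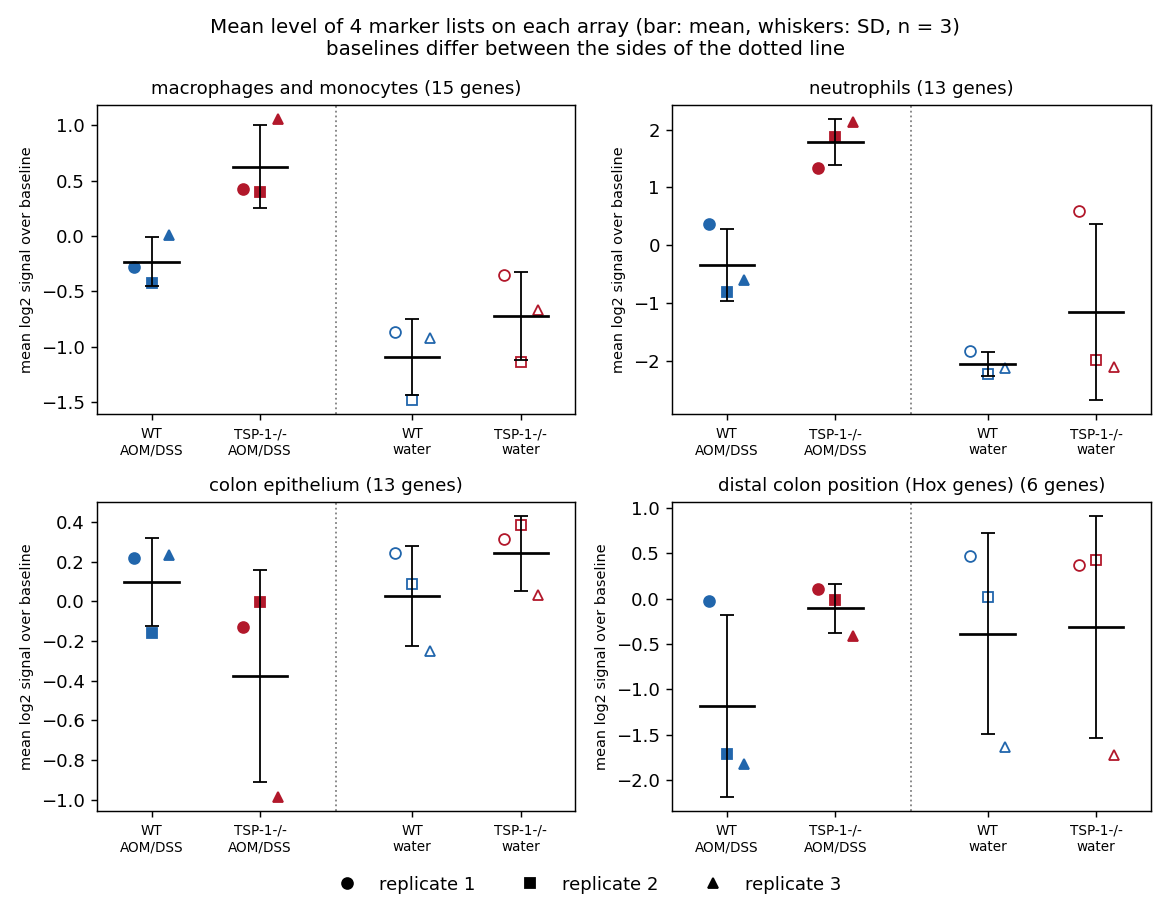
Mean log2 signal over baseline (vertical axis) of 4 marker lists on each of the 12 arrays, by group as in the plot of single genes; bars are means and whiskers SD over 3 arrays. Macrophage and neutrophil means are higher on all 3 TSP-1-/- AOM/DSS arrays than on the WT ones, and WT replicates 2 and 3 are low in the distal markers.

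The second comparison was of the genotypes in mice that drank water. All 9 differences were positive, from 0.21 (Arg1) to 1.37 (Ptgs2), but limma called 0 of the 9 genes and 0 of all 28815 probes with water values (0%), of which 288 (0.999%) had an unadjusted p under 0.05. The genotypes overlapped for all 9 genes, where 5.17% of probes were without overlap. TSP-1-/- replicate 1 was the highest of the 6 water arrays for 8 of 9 genes, the exception being Duox2, whereas it was the highest for 15.8% of all probes. It exceeded the mean of the other 5 by 2.92 for Ptgs2, 2.05 for Ido1, 2.01 for Nos2, 1.49 for Tnf, 1.23 for Duoxa2, 1.10 for Ptges, 1.05 for Nox1, 0.88 for Arg1 and 0.47 for Duox2. Without it, the differences of Nos2, Arg1, Ido1 and Tnf were negative and those of the other 5 genes lay between 0.043 and 0.49. Il1b and the neutrophil and pancreatic markers were highest on the same array, and their part was not tested. None of the 6 pathway lists had a called gene in water.

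**Figure D5:**
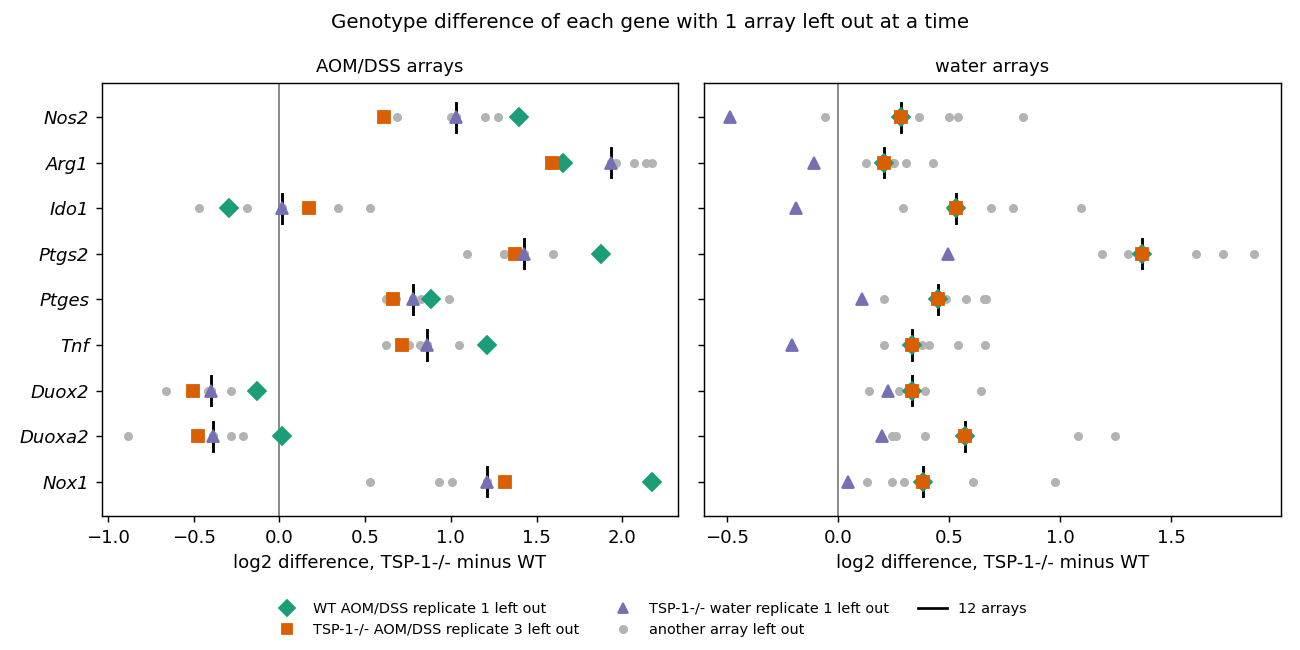
Log2 difference, TSP-1-/- minus WT (horizontal axis), of each gene within the AOM/DSS arrays (left) and the water arrays (right): black bars are all 12 arrays, symbols the same with 1 array left out. Leaving out WT AOM/DSS replicate 1 moves Nox1 from 1.21 to 2.17, and leaving out TSP-1-/- water replicate 1 lowers all 9 water differences.

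The third comparison, of AOM/DSS with water, could be made only through the 12-array median. It rests on the assumption that the 6 water arrays were the other samples behind that median. Duox2 was the one gene of the 9 whose 6 AOM/DSS arrays all lay above the median, so that all 6 water arrays lay below. Such a separation has the smallest p this design gives (exact two-sided permutation p = 0.00216). It held for 2.02% of probes, and a further 3.99% were separated the other way, with the same two-sided p. Nos2, Tnf and Ido1 had 5 of 6 AOM/DSS arrays above, as 11.9% of probes did. Ptgs2, Ptges, Duoxa2 and Nox1 had 4 of 6 (23.7% of probes). Arg1 had 3 of 6 (27% of probes), namely all TSP-1-/- and no WT array. Split by genotype, all 3 TSP-1-/- AOM/DSS arrays were above the median for 7 genes (30.9% of probes), the exceptions being Duoxa2 and Ido1, and all 3 WT arrays for Duox2 and Ido1 (10.5% of probes).

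On the same assumption, sizes can be estimated if a probe's water values are all shifted by the same amount, chosen to put the median of the 12 arrays at 0. For 6 genes 1 shift does so, and for Ido1, Tnf and Ptges a range of shifts does, of which the middle was taken. On this re-based log2 scale, AOM/DSS minus water in WT was 1.59 for Duoxa2, 1.45 for Duox2, 0.74 for Nos2, 0.60 for Ptgs2, 0.14 for Nox1 and -0.45 for Arg1. For the genes with a range it was 1.88 for Ido1 (1.16 to 2.59), 1.13 for Tnf (0.64 to 1.62) and 0.15 for Ptges (0.097 to 0.21). In TSP-1-/- mice it was 1.49 for Nos2, 1.27 for Arg1, 0.96 for Nox1, 0.72 for Duox2, 0.66 for Ptgs2, 0.64 for Duoxa2, 1.66 for Tnf (1.17 to 2.15), 1.36 for Ido1 (0.64 to 2.08) and 0.48 for Ptges (0.42 to 0.53). Set side by side, the WT sizes were the higher ones for Duox2, Duoxa2 and Ido1 and the TSP-1-/- sizes for the other 6 genes, by the difference of the genotype differences, which does not depend on the shift and was called for none of the 9. Without TSP-1-/- water replicate 1 and with the shifts kept, all 9 TSP-1-/- sizes were higher than with it. This had to be so, since that array lay above its group mean for all 9 genes. The sizes were then 2.26 for Nos2, 1.59 for Arg1, 1.54 for Ptgs2, 1.30 for Nox1, 1.01 for Duoxa2 and 0.83 for Duox2. They were 2.20 for Tnf (1.71 to 2.69), 2.08 for Ido1 (1.36 to 2.80) and 0.82 for Ptges (0.77 to 0.88). Those of Duox2 and Duoxa2 were still below the WT sizes.

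Within each array set centred on its mean, the 9 genes were compared with each other over the 12 arrays, which share tissue, position and cell make-up. Ptgs2 and Tnf had the highest correlation (0.911, and 0.833 without TSP-1-/- water replicate 1), followed by Duox2 and Duoxa2 (0.874 and 0.860) and by Nos2 and Ptges (0.870 and 0.791). Arg1 and Duox2 had the lowest (-0.299 and -0.437). Ido1 correlated with the other 8 genes by -0.157 to 0.113 once that array was left out. Among all named probes, Ptgs2 was most like the collagenase gene Mmp13 (0.996, and 0.991 without the array), then Mmp10 (0.944) and Inhba (0.943). Tnf was most like the neutrophil chemokine gene Cxcl2 (0.965), S100a9 (0.958) and Il1b (0.954). Ptges was most like Clec4e (0.954), Il1r2 (0.924) and Retnlg (0.905), and Nos2 like Prpf31 (0.953), Wfdc17 (0.925) and Ly6i (0.920). Duoxa2 was most like Acot9 (0.896), Cebpd (0.893) and Cep20 (0.893), and Duox2 like Trappc3 (0.931), Msh3 (0.917) and Tirap (0.895). Nox1 was most like Lims1 (0.972), Dynll1 (0.958) and Ext1 (0.945), Arg1 like Olfr736 (0.959), Ush1g (0.951) and Arhgef2 (0.941), and Ido1 like Dnph1 (0.918), Fcf1 (0.883) and Gm16381 (0.865).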

How the data were processed

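Total RNA of colon was labelled and hybridized to Affymetrix mouse gene arrays, 3 per group. The authors deposited log2 values made with PLIER16 and quantile normalization and set relative to a per-probe baseline, given as the median of all 12 samples. They were used as deposited. A median of 12 lies midway between the middle values, so the values nearest 0 on either side should be symmetric, within and across array sets. They were so for a pair of AOM/DSS arrays in 20.2% of probes and for an AOM/DSS with a water array in 0.0104%, so the water arrays were taken to be on another baseline. Of 28853 probes, 21789 have 1 gene symbol, 1621 several and 5443 none, and 38 lack water values. The number of arrays, 3 per group, limits the precision.

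One mean per group was fitted over 12 arrays with limma 3.58.1 in R 4.3.3 (lmFit, eBayes) after tests on simulated data, with 2-fold and 0.05 (after Benjamini-Hochberg) as the limits of a call. Genes and lists were chosen with earlier results of these data known. Named were all listed genes, the called genes of each list (the 2 with the lowest adjusted p where none was called) and the 3 genes most correlated with each member. Alternatives were other normalizations, variances, filters, array weights, a replicate block and leaving out each array. Correlations and re-based sizes without TSP-1-/- water replicate 1, and pathway genes without WT AOM/DSS replicate 1 or TSP-1-/- AOM/DSS replicate 3, were added after seeing the data. Figures used matplotlib 3.10.9.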

Additional observations from a re-analysis of the deposited data

How the results depend on the processing

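The 3 arrays a group limit what can be called, and the number of called probes depended strongly on the setting, while the direction of most AOM/DSS differences of the 9 genes did not. Within AOM/DSS, 802 probes were called, and 183 after quantile normalization of the 12 arrays again, 47 with unmoderated variances, 381 with array weights, 103 without the most variable probes (a filter that removes Arg1), 6 with only these 6 arrays in the fit, 2396 with no fold minimum, and 104 to 1402 with each array left out, lowest without WT AOM/DSS replicate 3 and highest without TSP-1-/- AOM/DSS replicate 2. Of the 802, 500 were higher, against 396 of 810 with each array centred on its median, 259 of 650 when each set was quantile normalized by itself and 78 of 183 after that over 12 arrays. In water 0 were called, 0 to 1 with an array left out. For the difference of the differences, 2 were called, 18 and 20 after quantile normalization over 12 arrays and within sets, 1 with unmoderated variances, 4 with robust ones, 82 with array weights, 143 without the most variable probes, and 1 to 289 with an array left out, the highest without WT AOM/DSS replicate 1. All AOM/DSS arrays were above the 12-array median for 582 probes, 993 after centring and 738 to 2221 with an AOM/DSS array left out. All were below it for 1151, 1435 to 2009 with an AOM/DSS array left out. With an array left out fewer arrays have to pass, so these 2 counts cannot fall.

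With the replicate number as a block, 803 probes were called within AOM/DSS, 0 in water and 1 for the difference of the differences, and Arg1 kept its call (adjusted p = 0.0253). The labels do not say that the numbers pair the mice, and same-numbered AOM/DSS arrays did not deviate together (correlations 0.026, -0.042 and -0.024). Same-numbered water arrays had positive correlations (0.093, 0.281 and 0.402), and differently numbered ones lay between -0.377 and 0.183. Whether the water numbers share a factor was not tested.

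Some differences changed sign. Ido1 within AOM/DSS was -0.46 and -0.60 after quantile normalization over 12 arrays and within sets, -0.060 after centring, -0.074 with array weights, and -0.47 to 0.53 with an array left out (-0.29 and -0.19 without WT replicates 1 and 2). Duoxa2 was -0.88 to 0.014 with an array left out, the latter without WT AOM/DSS replicate 1. In water the differences with an array left out were -0.49 to 0.83 for Nos2, -0.11 to 0.43 for Arg1, -0.19 to 1.10 for Ido1 and -0.21 to 0.66 for Tnf, each lowest without TSP-1-/- replicate 1, and Nos2 was -0.059 without WT replicate 3. The Ptgs2 difference of the differences, 0.058, was -0.35 and -0.19 after quantile normalization over 12 arrays and within sets, -0.021 after centring, -0.17 with array weights, and -0.45 to 0.93 with an array left out (-0.060 and -0.28 without WT AOM/DSS replicates 2 and 3, -0.061 without TSP-1-/- AOM/DSS replicate 2, -0.19 without WT water replicate 3, -0.31 without TSP-1-/- water replicate 3). That of Ido1 was -1.08 to 0.21, highest without TSP-1-/- water replicate 1. The cause was not tested.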
